A study of Mus musculus with 8 samples.

Results

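The genes described are 10 negative regulators of MAP kinase signalling: the dual-specificity phosphatase genes Dusp2, Dusp4, Dusp5, Dusp6, Dusp10 and Dusp16, the Sprouty genes Spry1 and Spry2, and the Spred genes Spred1 and Spred2. They were taken by symbol from the 19937 genes that had a probe set annotated to 1 symbol alone, and a gene was read from its probe set with the highest mean over the 8 arrays. All 10 were measured, Spred2 by 2 probe sets and the others by 1. The levels come from splenic B cells of adult CBAxC57BL/6J mice, sorted as positive for both CD22 and B220. The Sca1-HGAL group carried human HGAL (GCET2), which encodes a germinal centre B-cell adaptor protein, driven by the Sca1 (Ly-6E.1) promoter, which is not specific to B cells. The Control group was made up of wild-type littermates. Each group had 4 samples, with 1 Affymetrix Mouse Gene 1.0 ST array per sample. The genotype field calls the mice knock-in and the design text calls them transgenic. Whether each array is a separate mouse is not given, so the spread behind the p-values may be technical.

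B-cell receptor engagement activates the kinase ERK through Ras, RAF and MEK. Active ERK induces some of its own inhibitors, which makes their transcripts a common read-out of pathway activity. Dual-specificity phosphatases remove phosphate from the threonine and the tyrosine that activate a MAP kinase. Sprouty proteins dampen signalling to Ras, and Spred proteins bring the Ras GTPase-activating protein neurofibromin to the membrane. Dusp10 and Dusp16 proteins act mainly on the kinases JNK and p38, so they are less direct measures of ERK than the other members.

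Levels are log2 intensities, with the SD over the 4 arrays of a group where a mean is given. The log2 fold is the Sca1-HGAL mean minus the Control mean, with its standard error (SE) from limma, and adjusted p-values are Benjamini-Hochberg values over all 21640 probe sets tested. The B-cell genes Cd79a and Cd22 were at 13.29 ± 0.03 and 12.70 ± 0.13 (SD, n = 4) in Sca1-HGAL arrays, and at 13.40 ± 0.07 and 12.66 ± 0.04 (SD, n = 4) in Control arrays. The mouse arrays give no sure measure of the human transgene, so the genotype was not checked by its RNA. Control replicates 2 and 4 had high levels of Xist, the transcript that silences an X chromosome, 12.17 and 12.18. The remaining arrays were at 5.28 to 5.65. The Y-linked gene Eif2s3y was at 4.22 and 3.96 on these 2 arrays and from 10.21 to 10.61 on the others, so mouse sex appears unbalanced between the groups. On the first principal component, Sca1-HGAL replicate 1 was the highest array at 29.27, with Sca1-HGAL replicates 2 and 4 at 11.58 and 2.92. Sca1-HGAL replicate 3 was at -8.14, among the Control arrays, which ran from -12.02 to -5.95. Results are therefore also given without the 2 Control arrays with high Xist, without Sca1-HGAL replicate 3 and without Sca1-HGAL replicate 1. Replicate 3 was picked from these same data for lying among the Control arrays, so leaving it out can favour a difference between the groups.

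Of the 10 genes, none passed limma at an adjusted p under 0.05, where 0.00462% of all probe sets did, and none passed at 0.10, where 0.0416% did. The smallest adjusted p among them was 0.159, for Dusp16. At an unadjusted p under 0.05, 4 genes had a negative log2 fold, Dusp4, Dusp5, Dusp6 and Dusp16, and 0 had a positive one. Over all probe sets, 4.06% had such a p with a negative log2 fold and 5.53% with a positive one. For Dusp4, Dusp6 and Dusp16, all 4 Sca1-HGAL values lay below all 4 Control values, a separation seen in 2.3% of all probe sets. For 0 of the 10 did they all lie above, which 3.15% of probe sets showed. The 10 log2 folds had a median of -0.18, with 9 negative, against a median of 0.02 over all genes, of which 43.6% were negative. The genes were picked by name, with earlier results of these data known, and several are known to be induced together. These counts therefore describe the list and are no test of it. In sorted cells measured in bulk, fewer cells of a type and less RNA per cell cannot be told apart.

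**Figure D1:**
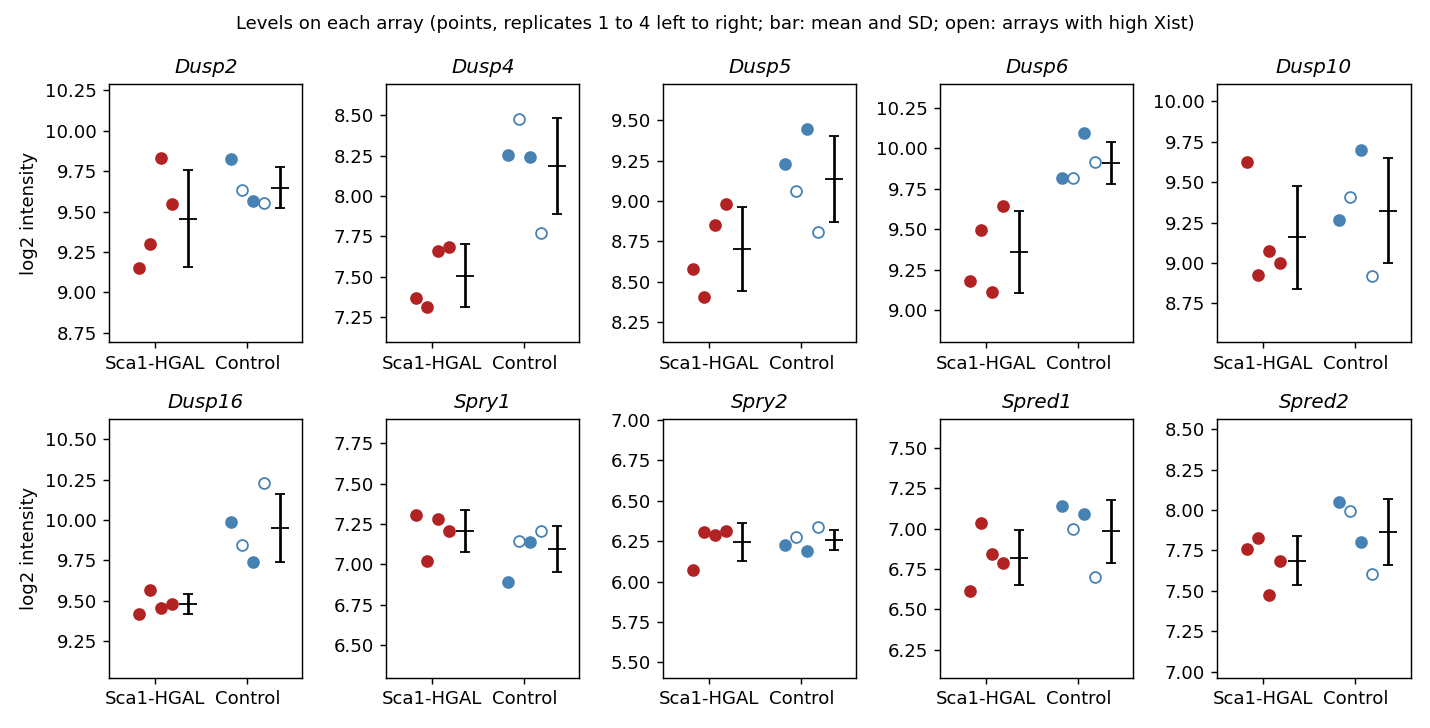
Log2 intensity of each of the 10 genes on every array, with Sca1-HGAL on the left (red) and Control on the right (blue), a bar for the mean and SD over 4 arrays, and open points for the 2 Control arrays with high Xist. Each panel spans the same range of log2 units around its own centre. The red and blue points do not overlap for Dusp4, Dusp6 and Dusp16 and overlap for the other 7 genes.

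The inducible nuclear phosphatases come first. Dusp4, which acts on ERK and other MAP kinases in the nucleus, was at 7.37, 7.31, 7.66 and 7.69 in the Sca1-HGAL arrays, against 8.25, 8.48, 8.24 and 7.77 in the Control arrays. All Sca1-HGAL values were below all Control values, by 0.09 at the nearest point, where Control replicate 4 lay close to the Sca1-HGAL range. The log2 fold was -0.68 (SE 0.15, 95% interval -1.001 to -0.35), a linear intensity of 0.625 times the Control level that did not pass (limma adjusted p = 0.166). Among all probe sets, Dusp4 ranked 117 by p.

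Dusp5, whose protein binds ERK in the nucleus and is selective for it, was at 8.58, 8.41, 8.85 and 8.98 in the Sca1-HGAL arrays, against 9.23, 9.06, 9.44 and 8.81 in the Control arrays. The groups overlapped through Control replicate 4, which lay below Sca1-HGAL replicates 3 and 4. This gave a log2 fold of -0.43 (SE 0.15, 95% interval -0.77 to -0.09) and a limma adjusted p = 0.409. Without Sca1-HGAL replicate 2 or Control replicate 3, its unadjusted p no longer lay under 0.05, with a log2 fold of -0.33 in each case.

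Dusp2, a nuclear phosphatase of activated lymphocytes, was at 9.15, 9.30, 9.83 and 9.55 in the Sca1-HGAL arrays, against 9.83, 9.64, 9.57 and 9.55 in the Control arrays. Sca1-HGAL replicate 3 lay just above the highest Control array, while the other Sca1-HGAL arrays lay below the lowest. Dusp2 had a log2 fold of -0.19 (SE 0.14, 95% interval -0.49 to 0.11, limma adjusted p = 0.708). With each array left out in turn it ran from -0.32, without Sca1-HGAL replicate 3 (limma adjusted p = 0.312), to -0.087, without Sca1-HGAL replicate 1 (limma adjusted p = 0.818).

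Dusp6, the cytoplasmic ERK phosphatase and one of the most used markers of ERK output, was at 9.18, 9.50, 9.11 and 9.64 in the Sca1-HGAL arrays, against 9.82, 9.82, 10.09 and 9.92 in the Control arrays. The groups did not overlap, with 0.17 between the highest Sca1-HGAL and the lowest Control array. Its log2 fold was -0.55 (SE 0.12, 95% interval -0.82 to -0.28), a linear intensity of 0.681 times the Control level that did not pass (limma adjusted p = 0.178). Here the Sca1-HGAL arrays varied more (SD 0.26, n = 4) than the Control arrays (SD 0.13, n = 4).

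Dusp16, a shuttling phosphatase that acts mainly on JNK and p38, was at 9.42, 9.57, 9.46 and 9.48 in the Sca1-HGAL arrays, against 9.99, 9.85, 9.74 and 10.23 in the Control arrays. The groups were 0.18 apart at the nearest point, and the Sca1-HGAL arrays lay close together (SD 0.06, n = 4, against 0.21 in the Control arrays). A log2 fold of -0.47 (SE 0.10, 95% interval -0.69 to -0.25), or 0.721 times the Control level, came with the smallest p of the 10 genes. It ranked 107 among all probe sets (limma adjusted p = 0.159).

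Dusp10, another phosphatase of JNK and p38, was at 9.63, 8.93, 9.07 and 9.001 in the Sca1-HGAL arrays, against 9.27, 9.41, 9.70 and 8.92 in the Control arrays. Each group spanned most of the other, with Sca1-HGAL replicate 1 high and Control replicate 4 low. The log2 fold was -0.17 (SE 0.18, 95% interval -0.57 to 0.24, limma adjusted p = 0.823). It was -0.041 without Control replicate 3 (limma adjusted p = 0.972) and -0.32 without Sca1-HGAL replicate 1 (limma adjusted p = 0.442). The 2 genes for phosphatases of JNK and p38 thus had log2 folds of different size, and the difference between them was not tested.

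**Figure D2:**
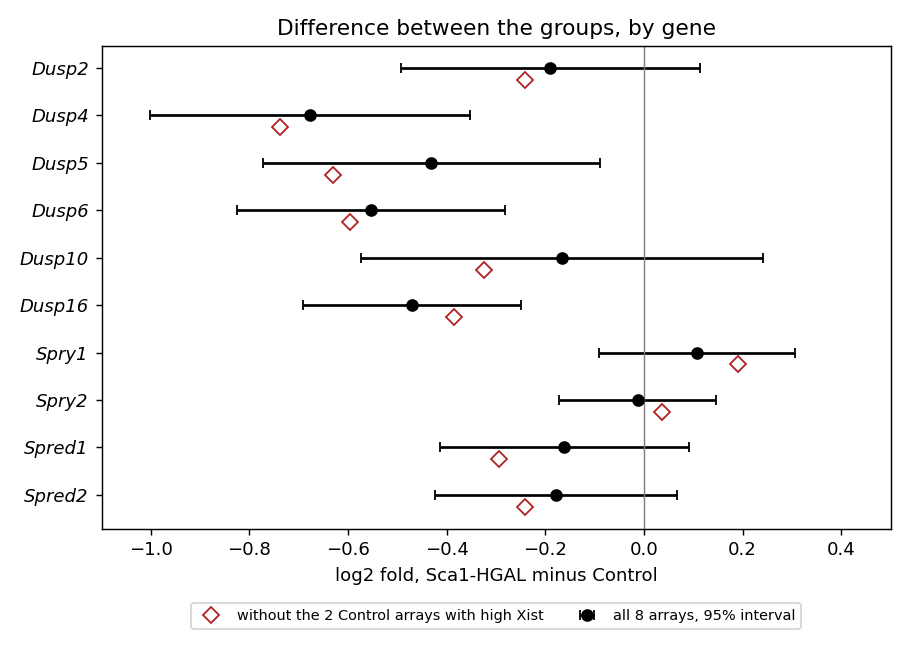
Log2 fold (Sca1-HGAL minus Control) of each gene on the x axis, with the limma 95% interval over all 8 arrays (black) and the value without the 2 Control arrays with high Xist (open red diamonds). The intervals of Dusp4, Dusp5, Dusp6 and Dusp16 lie below 0 and those of the other 6 genes include 0. These intervals are not adjusted for the number of probe sets.

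Promoter sequence was examined for the genes that RefSeq (GRCm38.p6) lists, which were 9 of the 10. The window was the 250 bases before the annotated start. Dusp5, Dusp6 and Dusp16 are shown because they are the genes with an unadjusted p under 0.05 that the table holds. The 4 motifs searched, on both strands, were the CArG box bound by serum response factor, the ETS core CCGGAA, the AP-1 motif TGANTCA and the cyclic AMP response half-site TGACG. Matches are in capitals, and a match on the other strand reads as its reverse complement. The windows are chr19:53528895-53529144 on the plus strand for Dusp5, chr10:99262981-99263230 on the plus strand for Dusp6 and chr6:134792629-134792878 on the minus strand for Dusp16.
Dusp5: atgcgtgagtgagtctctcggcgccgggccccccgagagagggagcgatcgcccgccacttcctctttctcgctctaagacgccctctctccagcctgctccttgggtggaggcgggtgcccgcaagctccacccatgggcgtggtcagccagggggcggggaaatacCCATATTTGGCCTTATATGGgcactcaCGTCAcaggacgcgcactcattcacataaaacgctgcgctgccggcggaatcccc
Dusp6: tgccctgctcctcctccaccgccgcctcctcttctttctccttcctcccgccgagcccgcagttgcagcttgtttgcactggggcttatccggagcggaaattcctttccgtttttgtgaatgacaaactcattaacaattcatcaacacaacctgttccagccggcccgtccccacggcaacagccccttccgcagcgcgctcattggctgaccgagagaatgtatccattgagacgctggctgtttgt
Dusp16: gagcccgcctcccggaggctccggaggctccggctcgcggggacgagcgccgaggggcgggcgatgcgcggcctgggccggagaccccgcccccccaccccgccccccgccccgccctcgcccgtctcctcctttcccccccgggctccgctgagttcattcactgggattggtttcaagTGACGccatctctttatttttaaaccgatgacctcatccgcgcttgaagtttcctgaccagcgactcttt
The Dusp5 window holds 2 CArG boxes side by side, CCATATTTGG from 82 to 73 bases and CCTTATATGG from 72 to 63 bases before the start. A CArG box was present in 1.47% of 32851 promoter windows of this length, and 6 windows held more than 1. Dusp5 also holds the half-site CGTCA, 55 to 51 bases before the start, and Dusp16 holds TGACG, 70 to 66 bases before it. This half-site was found in 17.8% of windows, and Spred2 was the other gene of the 9 with one. None of the 9 windows held CCGGAA, present in 12% of windows, or TGANTCA, present in 6.75%. No match says only that these letters are not in the window.

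The Sprouty genes had overlapping groups. Spry1, which encodes an inhibitor of receptor signalling to Ras, was at 7.31, 7.02, 7.28 and 7.21 in the Sca1-HGAL arrays, against 6.89, 7.15, 7.14 and 7.21 in the Control arrays. The ranges overlapped, and Spry1 was the single gene of the 10 with a positive log2 fold, 0.11 (SE 0.09, 95% interval -0.09 to 0.31, limma adjusted p = 0.755). Spry2, a paralogue with a similar role, was at 6.07, 6.31, 6.29 and 6.31 in the Sca1-HGAL arrays, against 6.22, 6.28, 6.19 and 6.34 in the Control arrays. Its log2 fold was -0.01 (SE 0.07, 95% interval -0.17 to 0.15, limma adjusted p = 0.978). The values carry no detection calls, so it is not known whether Spry2 was above background.

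The Spred genes had small negative log2 folds with overlapping groups. Spred1 was at 6.62, 7.03, 6.84 and 6.79 in the Sca1-HGAL arrays, against 7.14, 6.999, 7.09 and 6.70 in the Control arrays. Its log2 fold was -0.16 (SE 0.11, 95% interval -0.41 to 0.09, limma adjusted p = 0.699). Control replicate 4 again lay low, below 3 of the 4 Sca1-HGAL arrays.

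Spred2 was at 7.76, 7.82, 7.47 and 7.69 in the Sca1-HGAL arrays, against 8.05, 7.996, 7.80 and 7.61 in the Control arrays. The log2 fold was -0.18 (SE 0.11, 95% interval -0.42 to 0.07, limma adjusted p = 0.654). Its other probe set, at 6.39 ± 0.03 in Sca1-HGAL and 6.62 ± 0.25 in Control arrays (SD, n = 4), gave -0.23 as its log2 fold (SE 0.11, limma adjusted p = 0.557). Both probe sets had the same direction.

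By array, the members did not move as a block. Measured from each gene's Control mean, the median deviation over the 10 genes was -0.43, -0.37, -0.27 and -0.18 in Sca1-HGAL replicates 1 to 4, against 0.05, 0.02, 0.05 and -0.18 in Control replicates 1 to 4. Control replicate 4 therefore lay as low as Sca1-HGAL replicate 4 on this measure, and it was the lowest Control array for 6 of the 10 genes: Dusp2, Dusp4, Dusp5, Dusp10, Spred1 and Spred2. For Dusp16 the same array was the highest of all, at 10.23. Sca1-HGAL replicates 1 and 2 were each the lowest of their group for 4 genes. Dusp6 was lowest in Sca1-HGAL replicate 3, while Dusp2 was highest of its group there.

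**Figure D3:**
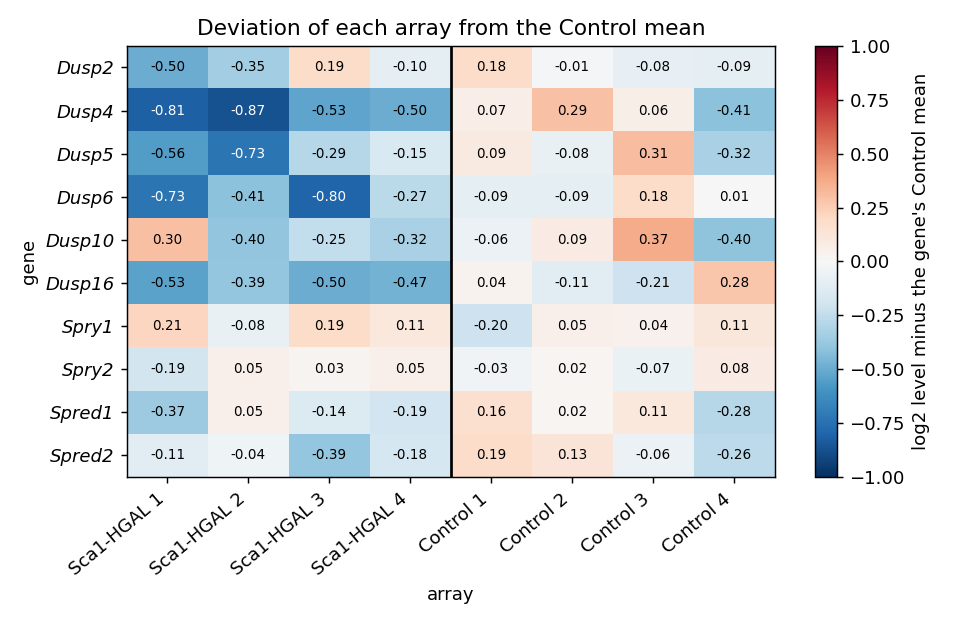
Log2 level of each gene (rows) on each array (columns, Sca1-HGAL left of the line and Control right of it) minus the gene's Control mean, with blue below and red above it. Dusp4, Dusp5, Dusp6, Dusp16 and Spred2 are negative on every Sca1-HGAL array. Control replicate 4 is also negative for Dusp2, Dusp4, Dusp5, Dusp10, Spred1 and Spred2.

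Leaving out the arrays that stood apart kept the sign for the 4 genes. For Dusp4, Dusp6 and Dusp16 this sign was fixed in advance, as their groups did not overlap. Without the 2 Control arrays with high Xist, 4 Sca1-HGAL arrays were set against 2 Control arrays. The log2 fold was then -0.74 for Dusp4, -0.63 for Dusp5, -0.60 for Dusp6 and -0.38 for Dusp16, with limma adjusted p-values of 0.337, 0.497, 0.516 and 0.491. In that setting Dusp5 and Spred1 had groups that did not overlap either, which made 5 genes, all lower in Sca1-HGAL, against 6.6% of probe sets. Dusp4, Dusp6 and Dusp16 were bound to stay apart. The arrays left out included Control replicate 4, the lowest Control array for Dusp5 and Spred1. The median over the 10 was then -0.31. The Control arrays with high Xist averaged 8.94 for Dusp5 and 10.04 for Dusp16, against 9.34 and 9.87 on the other 2 Control arrays. Without Sca1-HGAL replicate 3, the log2 fold was -0.73 for Dusp4, -0.48 for Dusp5, -0.47 for Dusp6 and -0.46 for Dusp16. Without Sca1-HGAL replicate 1, the log2 fold was -0.63 for Dusp4, -0.39 for Dusp5, -0.49 for Dusp6 and -0.45 for Dusp16. Without Control replicate 4, the median over the 10 was -0.28. In that fit 6 genes had an unadjusted limma p under 0.05 with a negative log2 fold, against 3.96% of probe sets. Control replicate 4 was picked from these same values for lying low, so leaving it out favours negative log2 folds and is no support for them.

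Summed pan-B, marginal zone, and B-1 or age-associated B cell markers lay apart between the same groups. Their lists were chosen with earlier results of these data known. The summed intensity of 9 marginal zone B genes was 10380 to 12480 in Sca1-HGAL arrays and 13600 to 16980 in Control arrays, and all 9 log2 folds were negative. These folds were uneven, from -0.83 to -0.0003, and the groups did not overlap for 6 of the 9, against 2.3% of all probe sets. For 9 genes that mark B-1 cells or age-associated B cells the summed intensity was 3677 to 7444 in Sca1-HGAL arrays and 2923 to 3037 in Control arrays, and all 9 log2 folds were positive. They ran from 0.06 to 1.46, and the groups did not overlap for 6 of the 9, against 3.15% of all probe sets. Over 7 of 8 pan-B genes measured, the sum was 56390 to 57410 in Sca1-HGAL arrays and 58410 to 60110 in Control arrays. The pan-B log2 folds were small, from -0.12 to 0.04, with 6 negative and 1 positive. For 1 of these 7 the groups did not overlap, with Sca1-HGAL lower, against 2.3% of all probe sets. The sums of the other B-lineage lists overlapped. Plasma cell genes, 6 in number, summed to 3994 to 6294 in Sca1-HGAL and 5767 to 6549 in Control arrays, and the germinal centre sum, over 5 of 6 genes, was 1195 to 1764 in Sca1-HGAL and 1488 to 1708 in Control arrays. Of the plasma cell genes, Slamf7, a surface receptor, had groups that did not overlap, with a log2 fold of -0.64. None of these genes passed limma at an adjusted p under 0.05. Their part in the levels of Dusp4, Dusp5, Dusp6 and Dusp16 was not tested.

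Markers of cells outside the B lineage overlapped between the groups in their summed intensity, but not for every single gene. For 6 of 8 T cell genes the sum was 865.7 to 2346 in Sca1-HGAL and 1157 to 1597 in Control arrays. For 6 NK cell genes it was 555.7 to 1158 in Sca1-HGAL and 783.8 to 1049 in Control arrays. Over 7 macrophage and monocyte genes it was 1730 to 2653 in Sca1-HGAL and 1716 to 2432 in Control arrays. Over 8 neutrophil genes, all with positive log2 folds, it was 849.4 to 2529 in Sca1-HGAL and 746.2 to 1299 in Control arrays. Plasmacytoid dendritic cell genes, 4 in number, summed to 2410 to 3302 in Sca1-HGAL and 2502 to 2988 in Control arrays, a sum in which Tcf4, the brightest, weighs most. The mean log2 level of these 4 genes was 8.04 to 8.28 in Sca1-HGAL and 8.30 to 8.89 in Control arrays, which did not overlap. The erythroid sum, over 2 of 5 genes, was 2521 to 3609 in Sca1-HGAL and 788.5 to 4180 in Control arrays. The groups did not overlap for 5 of these genes, named here after their values were seen, as was Slamf7. Siglech and Ccr9, both receptors of plasmacytoid dendritic cells, were lower in Sca1-HGAL arrays, with log2 folds of -0.68 and -0.83. In the same list Bst2 had -0.06 and Tcf4 went the other way with 0.22, both with groups that overlapped. Adgre1, a macrophage surface antigen, was higher in Sca1-HGAL arrays, with 1.01, as were the neutrophil protease genes Elane and Mmp9, with 0.40 and 0.34. The 7 macrophage and monocyte genes were mixed in direction, with 4 positive and 3 negative log2 folds and a median of 0.09. Over all probe sets, 2.3% lay apart with Sca1-HGAL lower and 3.15% with Sca1-HGAL higher, and none of the 5 genes passed limma at an adjusted p under 0.05. No marker was listed at 0, and mean levels under log2 6 were found for 2 NK cell, 1 macrophage and 1 neutrophil gene. Dusp2, Dusp4 and Dusp6 are also expressed by activated T cells and myeloid cells, and the part of such cells was not tested.

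Other genes of the pathway were read from 8 lists of 77 genes, of which 68 were measured, and the rest are not analysed here. At an adjusted p under 0.05, 0 of the 68 passed limma. At an unadjusted p under 0.05, 5 had a negative and 5 a positive log2 fold, where 4.06% and 5.53% of all probe sets did. The groups did not overlap for 2 lower and 2 higher genes, against 2.3% and 3.15% of all probe sets. The median log2 fold of the 68 was -0.04, with 47 negative, where 43.6% of all genes were negative.

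The upstream cascade, from the adaptor Grb2 to the MEK kinases, had a median log2 fold of -0.02 over 12 of 17 genes, in a range of -0.09 to 0.19. Grb2, which links receptors to the Ras activator SOS, had 0.19 (SE 0.07, limma adjusted p = 0.399), Map2k2, which encodes a MEK kinase, -0.09 and Araf, a RAF kinase gene, 0.10. Among 9 of 10 Ras GTPase-activating proteins the median was -0.02, with Rasal1 at 0.11, Rasal3 at -0.10 and Rasa4 at -0.12. The JNK and p38 cascade had a median of 0.00 over 8 of 9 genes. Its list holds the target kinases of Dusp10 and Dusp16 and also the kinases that activate those targets. In that cascade Map2k4, an activator of JNK, had -0.19 (SE 0.06, limma adjusted p = 0.330) with groups that did not overlap, Mapk11, a p38 kinase gene, had 0.14 and Map2k6, an activator of p38, 0.11.

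The other phosphatases of MAP kinases had a median of -0.03 over 7 genes. Dusp1, an immediate early nuclear phosphatase, was at 10.55, 10.39, 11.72 and 11.11 in the Sca1-HGAL arrays, against 11.78, 11.50, 11.70 and 11.21 in the Control arrays. Sca1-HGAL replicate 3 lay within the Control range, and the log2 fold was -0.61 (SE 0.26, limma adjusted p = 0.503). Ptpn5, a tyrosine phosphatase gene, had 0.18 (limma adjusted p = 0.427) with groups that did not overlap, and Dusp7, which encodes a cytoplasmic ERK phosphatase, -0.09. The remaining Sprouty and Spred genes had log2 folds of -0.14 for Spry4, 0.07 for Spry3 and 0.04 for Spred3, with limma adjusted p-values of 0.567, 0.759 and 0.890.

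Among 17 ERK-responsive genes, 15 had a negative log2 fold and the median was -0.14, where 43.6% of all genes were negative. At an unadjusted limma p under 0.05, 1 of the 17 had a negative log2 fold and 1 a positive one. Over all probe sets these shares were 4.06% and 5.53%. The groups overlapped for all 17. Fosb, an immediate early transcription factor gene, had -0.42 (SE 0.18, limma adjusted p = 0.506) and Myc, a growth regulator, -0.40 (SE 0.19, limma adjusted p = 0.538). Etv4, an ETS factor gene induced by ERK, had 0.19 (SE 0.07, limma adjusted p = 0.449). Of 7 genes for serum response and ETS factors, Ets2 was at 8.34, 7.62, 8.30 and 8.24 in the Sca1-HGAL arrays, against 8.93, 8.70, 9.18 and 8.33 in the Control arrays. Control replicate 4 was again the lowest Control array, just inside the Sca1-HGAL range, and the log2 fold of Ets2 was -0.66 (SE 0.20, limma adjusted p = 0.329). Elk4 and Elk3, partners of serum response factor, had 0.17 and 0.24, with limma adjusted p-values of 0.444 and 0.498. The groups did not overlap for Elk4, Sca1-HGAL being higher, and overlapped for Elk3. Among 5 of 7 scaffold and substrate kinases of ERK, Mknk2, which phosphorylates a translation factor, had -0.17 (SE 0.06, limma adjusted p = 0.426) with groups that did not overlap, Rps6ka5 had -0.22 and Mknk1 -0.06.

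**Figure D4:**
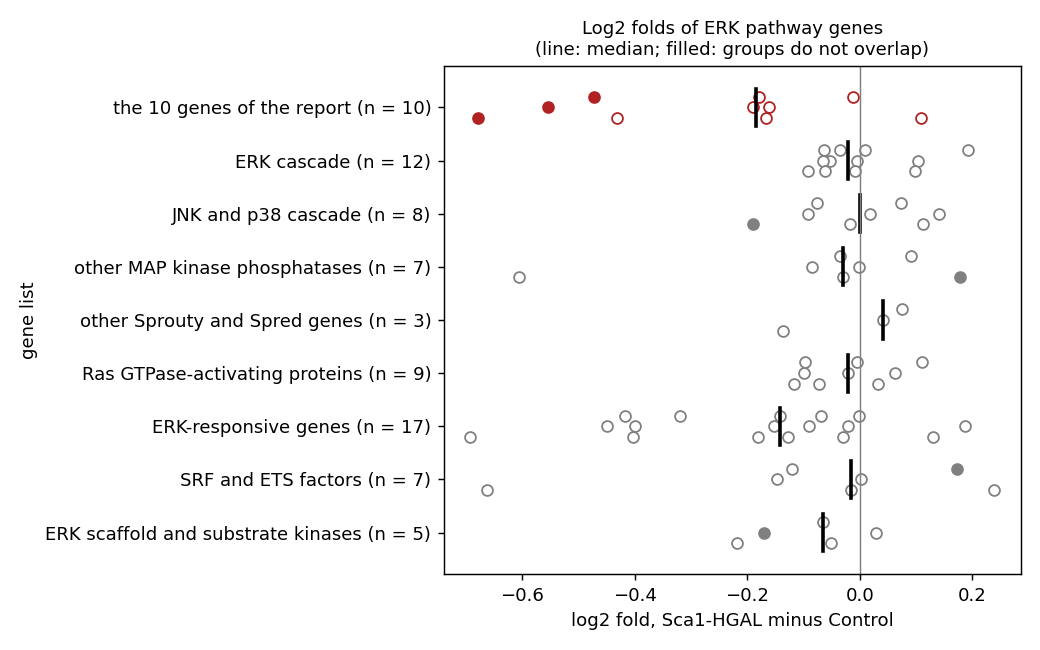
Log2 fold (Sca1-HGAL minus Control, x axis) of the 10 genes described (red) and of 8 lists of other pathway genes (grey), with 1 point per gene, a line at each median and filled points where the groups did not overlap. The lists were not tested against each other. Their medians run from -0.14 for ERK-responsive genes to 0.04 for other Sprouty and Spred genes, against -0.18 for the 10 genes.

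Genes most like Dusp16 and Dusp4 were sought by the root mean square difference of log2 values centred on each gene's mean, over 8 arrays and 14886 genes. For Dusp16 they were Tlr3, Pik3r4 and Cd48, at 0.11, 0.11 and 0.12, where Dusp16 itself varied by 0.27 around its mean. Their log2 folds were -0.57, -0.54 and -0.39. Pik3r4 is also 1 of the 9 marginal zone B genes above, and its groups did not overlap. For Dusp4 they were Tspoap1, Ephx3 and Lpar2, at 0.15, 0.16 and 0.17, where Dusp4 varied by 0.40. Their log2 folds were -0.53, -0.52 and -0.77. The search matched values over both groups, so negative log2 folds and groups apart follow largely from it and are no separate result. None of the 6 genes passed limma at an adjusted p under 0.05, with values from 0.111 to 0.398.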

How the data were processed

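Total RNA of 4 Sca1-HGAL and 4 Control samples was hybridised to 1 array each, and groups and replicate numbers come from the sample titles. The authors processed the arrays with RMA into intensities, per the submitters' processing notes. No version, annotation or build is given in the sources used here. RMA draws arrays to a common distribution, which removes changes shared by most genes and shrinks folds of dim probe sets. The deposited intensities were on a linear scale, and were turned into log2 values without a pseudocount. Of 34760 probe sets, the platform table gave 21640 a single symbol and 1321 several, and 11799 were unlisted. Those 21640 entered a two-sided limma fit (lmFit, eBayes, no covariate, limma 3.58.1, R 4.3.3). The step was tested on simulated data, with planted changes larger than the log2 fold of any member. That test does not show how well differences of the members' size would be recovered. Probe sets of the 19937 genes were not filtered, and no sample was left out. Arrays give no depth, and their number limits the precision. At most 0.0604% of values were equal between any pair of arrays.

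The members and lists were chosen with earlier results of these data known. The naming rule took all members, the 3 genes with the smallest p of each pathway list, fixed markers, and the 3 genes most like each of the 2 members with the smallest p. Mkl1 was matched through its current symbol. Same-numbered samples did not deviate together (correlations -0.16, 0.05, -0.13 and -0.01), so the main fit did not pair them. Such correlations cannot exclude that the numbers pair the samples. Alternatives covered normalization, filters, weights, priors, a replicate block, Xist and leaving out each array.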

Additional observations from a re-analysis of the deposited data

Results flagged for a closer look

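A single array stood apart from the other 3 of its group in 5 of the 70 gene and group combinations examined. About 3.5 such cases are expected by chance. Spry2 was lowest in Sca1-HGAL replicate 1, at 6.07, against 6.29 to 6.31 in its group mates. Map2k6 was lowest in Sca1-HGAL replicate 3, at 8.21, with the others at 8.52 to 8.57. Ets2 was lowest in Sca1-HGAL replicate 2, at 7.62, with the others at 8.24 to 8.34. Spred3 was highest in Sca1-HGAL replicate 2, at 7.45, with the others at 7.22 to 7.25. Myc was highest in Control replicate 3, at 12.03, with the other Control arrays at 11.28 to 11.38.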

How the results depend on the processing

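No member and no pathway gene passed an adjusted p under 0.05 in any alternative run, and no member passed at 0.10. The log2 folds of Dusp4, Dusp6 and Dusp16 were negative with an unadjusted p under 0.05 in all 19 alternatives, and that of Dusp5 was negative in 19, with such a p in 16. Over these, Dusp4 ranged from -0.81 to -0.58, Dusp5 from -0.63 to -0.33, Dusp6 from -0.65 to -0.46 and Dusp16 from -0.54 to -0.38. Leaving out arrays could not change the sign or the separation for Dusp4, Dusp6 and Dusp16, whose groups did not overlap. The fit with a replicate block left 0 members past the adjusted p and 4 at an unadjusted p under 0.05, and changed no member's call. The median log2 fold of the 10 genes was -0.31 without the arrays with high Xist and -0.30 with Xist as a covariate, and in the first setting 5 genes had groups apart; the cause was not tested. With each array left out in turn, the median ran from -0.28 to -0.16, genes at an unadjusted p under 0.05 from 3 to 6 and genes with groups apart from 3 to 4. Spry2 turned positive with array weights (0.016), without the arrays with high Xist (0.037) and with Xist as a covariate (0.033), and ran from -0.035 to 0.045 with each array left out. With each array left out, Spry1 ran from 0.040 to 0.17, Spred1 from -0.26 to -0.093 and Spred2 from -0.26 to -0.11. Dim probe sets such as Spry2 limit what a fold shows.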
